A study of Mus musculus with 4 samples.

Results

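Mammospheres grown from basal mammary cells of mice given both bisphenol A (BPA) and 7,12-dimethylbenz[a]anthracene (DMBA) were compared with mammospheres from control mice. The comparison rests on 2 of the 4 libraries of the study, the library labelled BPA+DMBA and the library labelled control, and on the 13380 of 22609 genes that had at least 20 counts in either of them. Mammospheres are the colonies that single mammary cells form in suspension, here for 7 days on ultralow attachment plates with epidermal and basic fibroblast growth factors, insulin and hydrocortisone. The cells came from Balb/C mice and were sorted by flow cytometry as basal cells at 4 months of age. Control mice were gavaged daily with sesame oil for 3 weeks from 21 days of age, and BPA+DMBA mice with BPA at 25 µg/kg/day over the same weeks. At 2 months the BPA+DMBA mice received 1 gavage of DMBA at 30 mg/kg. All mice stayed on a low-phytoestrogen diet after puberty. The other 2 libraries, BPA alone and DMBA alone, carried 1 of the treatments each and are set beside the pair.

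BPA is a plastics monomer that binds estrogen receptors. DMBA is a polycyclic hydrocarbon that binds the aryl hydrocarbon receptor, is oxidised by the cytochrome P450 enzymes this receptor induces, and then forms DNA adducts; it is a classical mammary carcinogen in rodents. Basal cells of the mammary duct express keratins 5 and 14 and the transcription factor p63, contract as myoepithelium, and include cells that can rebuild a gland on transplantation. Luminal cells line the duct, express keratins 8 and 18, and secrete milk and defence proteins.

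Each group was 1 library made from the pooled spheres of 5 animals. The pair therefore has no replicates, and no p-value was computed for it. Levels are counts scaled to library size (CPM), and ratios are log2 ratios of BPA+DMBA over control with 2 counts added, so that 1 means 2-fold higher and ratios of low genes are pulled towards 0. The 95% intervals are exact intervals of the raw count ratio and cover counting error only, not differences between animals, pools or cultures. Counts on genes came to 30627055 in control and 15672532 in BPA+DMBA, so 3 counts, the limit that a count of 0 allows, stood at 0.101 CPM in control and 0.189 CPM in BPA+DMBA. Low genes, with under 20 counts in a library, are given as raw counts, which follow the depth of each library. Their CPM is added where the gene passed the count filter. Equal counts mean a higher level in BPA+DMBA, the library with fewer counts. At the edge of the count filter, 50 genes had exactly 20 counts as their higher value and were kept, and 81 had 19 and were not. Some genes named below passed this filter only through the library where they were higher. Among them are Krtdap, Cnfn, Actg2, Lyz2, Gsta2, Mfng and Bmp4 through BPA+DMBA, and Kcnma1, Adra1a and Chst9 through control. The counts of called list members include such genes.

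The labelled cell type was checked against its markers. All 20 basal and myoepithelial markers were measured, but so were all 20 luminal markers. Krt8, a luminal keratin, had 593 CPM in control and 711 in BPA, against 644 in DMBA and 646 in BPA+DMBA, and its partner Krt18 had 1023 CPM in control, 1163 with BPA, 869 with DMBA and 897 with both. The spheres thus held transcripts of both layers in every library, and the sort label describes the cells that were plated. Most blood markers did not pass the count filter: the 4 globin genes had 0 counts in both libraries of the pair, and Ptprc, the pan-leukocyte antigen CD45, had 3 counts in control and 2 in BPA+DMBA. Of 19 immune cell markers 3 passed (Cd68, Csf1r and Lyz2). Cd68 stood at 21.2 CPM in control, 26.7 with BPA, 22.9 with DMBA and 23.5 with both.

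A gene was called when it differed at least 2-fold and its interval excluded equality. In BPA+DMBA 330 genes were higher, which is 2.47% of the genes compared, and 189 were lower, which is 1.41%. A further 13 genes reached 2-fold with an interval that included equality. Most genes lay close to the middle: 87.3% were within 1.5-fold, and the median log2 ratio over all genes was 0.01. At least 4-fold differences were seen in 56 genes that were higher and 16 that were lower. Calls were more frequent among low genes. Below 3 CPM, 8.37% of genes were called higher and 5.38% lower, against 0.632% and 0.657% of genes between 30 and 100 CPM. Every count of called list members below is to be read beside these shares. The called higher genes together took 3660 CPM in control and 9773 in BPA+DMBA, and the called lower genes 13696 and 4780.

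**Figure D1:**
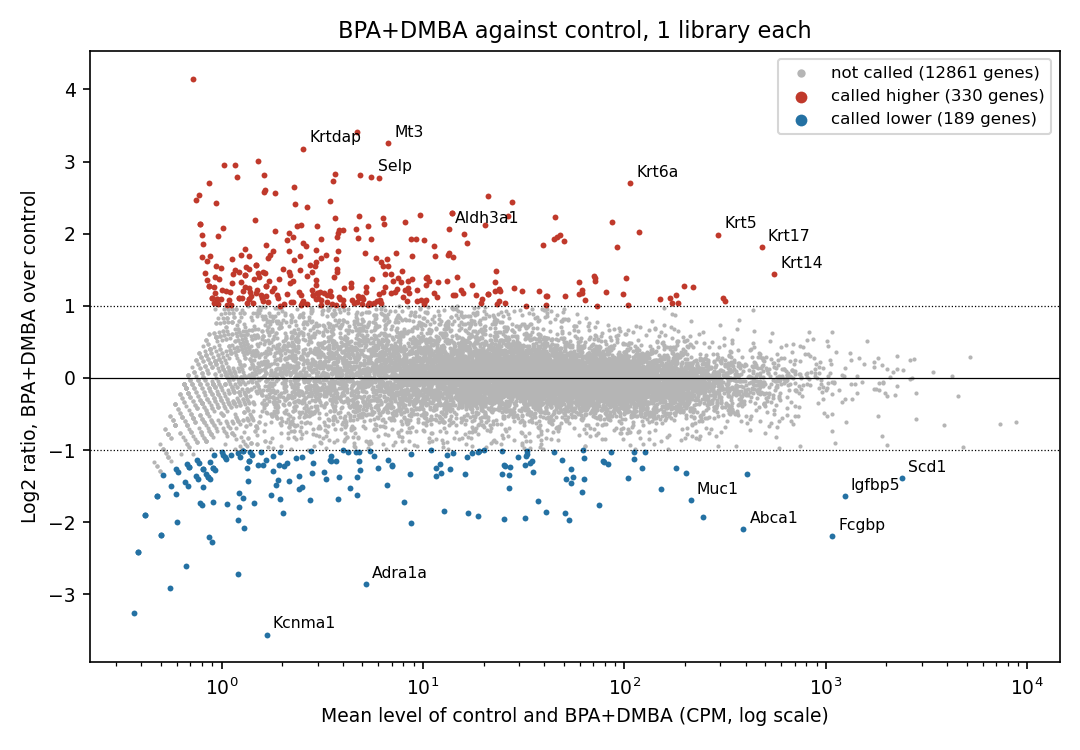
Log2 ratio of BPA+DMBA over control for each of 13380 genes (y axis) against the mean CPM of the 2 libraries (x axis, log scale). Red points are the 330 genes called higher, blue points the 189 called lower, and dotted lines mark 2-fold. Called genes are densest at low levels, while keratins (Krt5, Krt14, Krt17) on the higher side and Scd1, Fcgbp and Igfbp5 on the lower side stand out among abundant transcripts.

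A fit to all 4 libraries gives the only test. It models BPA and DMBA as additive effects by edgeR's quasi-likelihood test and tests their sum, with the departure from additivity (1 residual degree of freedom) in the place of replicates. By this test 106 genes rose (0.792% of those tested) and 117 fell (0.874%) at a Benjamini-Hochberg adjusted p under 0.05, and 2731 genes had an unadjusted p under 0.05. Of the genes called in the pair, 72 of 330 rose and 48 of 189 fell, and 0 passed in the opposite direction. In this layout the fitted sum is close to the log2 ratio of the pair by construction, as for Krt14 at 1.44 in both. The shared direction is therefore no separate support for the pair. The calls of this test depend on the scaling: with library totals alone in place of factors from the trimmed mean of M-values (TMM) 0 genes passed. Below, "rose" and "fell" are used only for genes that passed the additive test as first stated, and "higher" and "lower" describe the pair of libraries.

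Keratins and cornified envelope genes led the higher side. Of 33 listed genes of squamous and stratified epithelium 22 were measured. All 22 ratios were above 0, 15 were called higher and 0 lower, and the median ratio was 1.73, against 0.01 over all genes. Krtdap, Cnfn and Dsg1b, all called, passed the count filter only through BPA+DMBA, where they were higher. The list median was 1.42 without a filter and 1.49 with a filter of 50 counts. The summed level of the 22 genes was 1516 CPM in control, 1711 with BPA, 3393 with DMBA and 2755 with both. In the additive test 10 of the 22 rose and 0 fell. The members called were keratins of stressed, stratified or follicular epithelium (Krt6a, Krt6b, Krt15, Krt16), envelope precursors (Sprr1a, Sprr1b, Cnfn), desmosomal cadherins (Dsg1b, Dsg3, Dsc3) and other keratinocyte proteins (Krtdap, Sbsn, Calml3, Sfn, Cst6).

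Krt6a, a keratin induced in wounded and hyperproliferative epithelium, stood at 28.4 CPM in control and 33.9 in BPA, against 218 in DMBA and 185 in BPA+DMBA. Its ratio was 2.70 (95% interval 2.59 to 2.81), and it rose in the additive test (edgeR adjusted p = 0.0176). Krt16, which pairs with keratin 6, had 0.874 CPM in control, 1.15 with BPA, 7.33 with DMBA and 6.30 with both, and rose as well (ratio 2.73, 2.21 to 3.53, adjusted p = 0.0303). Both genes were low in control and BPA and high in DMBA and BPA+DMBA. Krtdap, a protein of differentiating keratinocytes, had 13 counts in control and 17 in BPA, against 314 in DMBA and 74 in BPA+DMBA (0.437 and 4.66 CPM in control and BPA+DMBA), a ratio of 3.18 (2.55 to 4.39). Its level was higher in DMBA than in BPA+DMBA, and it did not pass the additive test (adjusted p = 0.0833). Dsc3, a desmosomal cadherin of basal and stratified layers, had 9.11 CPM in control, 13.3 with BPA, 66.4 with DMBA and 43.5 with both, and rose (adjusted p = 0.0479). Cnfn, an envelope protein, had 10 counts in control and 8 in BPA, against 99 in DMBA and 46 in BPA+DMBA (0.336 and 2.90 CPM in control and BPA+DMBA), and rose (adjusted p = 0.0468). Krt79, a keratin outside the list, followed the same order at 8.50 CPM in control, 11.7 with BPA, 75.6 with DMBA and 46.7 with both, and rose (adjusted p = 0.0424). Late markers of full cornification did not reach the count filter: Krt1 had 1 count in control and 2 in BPA+DMBA, and Lor, the main envelope protein loricrin, 11 and 15. With 30627055 counts on genes in control and 15672532 in BPA+DMBA, these raw counts do not show the genes to be level. Ivl, the envelope protein involucrin, had a ratio of 0.56 (adjusted p = 0.201). Krt6a and Krt6b, and Sprr1a and Sprr1b, are close paralogs whose reads can be exchanged or lost in counting.

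Sprr1a, a cross-linked envelope precursor, stood at 6.15 CPM in control and 10.5 in BPA, against 63.9 in DMBA and 35.8 in BPA+DMBA, a ratio of 2.52 (2.30 to 2.79), and did not pass the additive test (adjusted p = 0.0691). AP-1 factors are known regulators of the small proline-rich genes. The window around its transcription start, from RefSeq on GRCm38.p6, is chr3:92485832-92486131 on the minus strand, and it is shown because it holds 2 copies of the AP-1 motif TGANTCA, in capitals.
Sprr1a: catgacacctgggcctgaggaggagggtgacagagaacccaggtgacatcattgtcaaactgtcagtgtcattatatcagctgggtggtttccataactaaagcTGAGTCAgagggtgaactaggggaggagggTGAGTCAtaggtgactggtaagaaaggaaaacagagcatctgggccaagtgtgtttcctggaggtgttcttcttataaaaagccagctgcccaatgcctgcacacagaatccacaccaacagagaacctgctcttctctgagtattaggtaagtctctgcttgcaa
The motif was searched on both strands. It was present in 5 of the 11 windows (45.5%) that belong to 10 of the 22 measured squamous genes, against 7.81% of all RefSeq promoter windows of the same length. It was present in 44 of 262 windows (16.8%) of genes called higher, in 9 of 157 windows (5.73%) of genes called lower and in 666 of 12123 windows (5.49%) of all genes compared. The windows of Krt5 and Krt14 held no match. A match describes letters and not binding. The AP-1 genes themselves were not called: Fos stood at 596 CPM in control, 115 with BPA, 472 with DMBA and 429.7 with both, and Fosb at 331.2 CPM in control and 26.2 in BPA, against 219 in DMBA and 194 in BPA+DMBA, both lowest in BPA.

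Basal keratins were higher, whereas integrins and the oxytocin receptor, which also mark basal cells, were not. Of 20 basal and myoepithelial markers 6 were called higher and 0 lower, with a median ratio of 0.59. Krt5 stood at 118 CPM in control, 149 with BPA, 559.9 with DMBA and 468 with both, and Krt14, its partner, at 298 CPM in control and 315 in BPA, against 880.0 in DMBA and 812 in BPA+DMBA. Their ratios were 1.99 (1.93 to 2.05) and 1.44 (1.40 to 1.48), and both rose in the additive test (adjusted p = 0.0199 and 0.0179). In each, the control and BPA libraries were low and the DMBA and BPA+DMBA libraries high. Krt17, a keratin of basal and appendage epithelium, made the largest gain in CPM of all called genes, from 212 in control to 748 in BPA+DMBA, with 292 in BPA and 1058 in DMBA. It did not pass the additive test (adjusted p = 0.0534). Trp63, which encodes p63, had 41.0 CPM in control, 48.0 with BPA, 100.1 with DMBA and 75.5 with both, and a ratio of 0.88 (0.77 to 1.00, adjusted p = 0.0905), short of 2-fold. Itgb1 and Itga6, the integrin chains often used to sort basal cells, had ratios of -0.15 and -0.21, and Oxtr, the oxytocin receptor, -0.34.

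Contractile genes split. Of 15 measured smooth muscle genes 4 were called higher and 0 lower, with a median of 0.41. Over all genes 2.47% were called higher, but 8.37% below 3 CPM and 5% from 3 to 10 CPM. Myh11, smooth muscle myosin, had 3.29 CPM in control and 2.87 in BPA, against 23.0 in DMBA and 16.1 in BPA+DMBA, a ratio of 2.26 (1.95 to 2.64), and rose (adjusted p = 0.0182). Actg2, smooth muscle gamma actin, had 14 counts in control, 8 with BPA, 172 with DMBA and 51 with both (0.471 and 3.21 CPM in control and BPA+DMBA), with a ratio of 2.57 (1.90 to 3.74, adjusted p = 0.0504). Both were highest in DMBA. Acta2, the smooth muscle actin commonly used as a myoepithelial marker, had a ratio of 0.64, Cnn1 (calponin) 0.96, and Tagln (transgelin) -0.05, and none of these 3 was called. Adra1a, the alpha-1A adrenergic receptor of contractile cells, went the other way: it had 274 counts in control and 135 in BPA, against 23 in DMBA and 19 in BPA+DMBA (9.21 and 1.20 CPM in control and BPA+DMBA), was 7.70-fold lower by the raw count ratio (4.84 to 13.0), and fell (adjusted p = 0.0252).

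**Figure D2:**
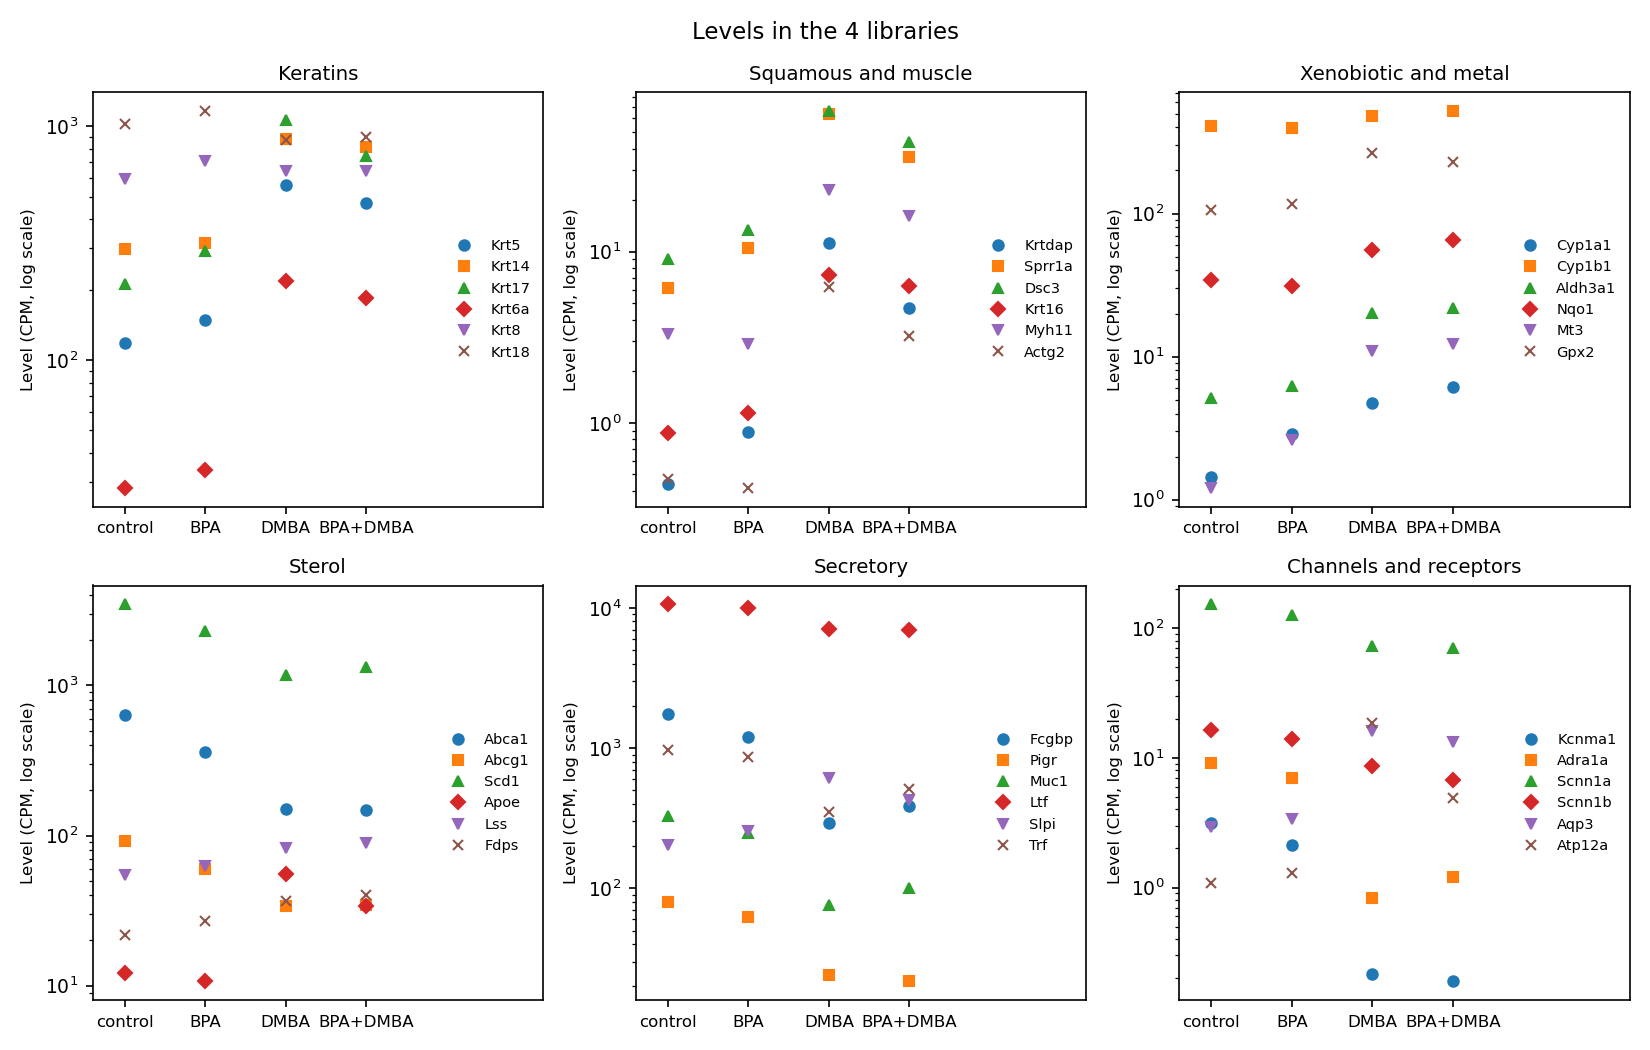
Levels (CPM, log scale) of 36 genes in the 4 libraries, 1 point per gene and library with no error bar since each group is 1 library. In most panels control and BPA stand together and DMBA and BPA+DMBA stand together, as for Krt6a at 28.4, 33.9, 218 and 185 CPM; Krt8 and Krt18 stay near level.

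Vessel markers were higher as well. Of 18 endothelial and pericyte markers 16 were measured, 8 were called higher and 0 lower, and their median ratio was 1.06. Over all genes 2.47% were called higher, but 8.37% below 3 CPM and 5% from 3 to 10 CPM. The called genes Selp, Emcn and Rgs5 stood below 3 CPM in control. Selp, the adhesion receptor P-selectin, had 1.34 CPM in control, 2.45 with BPA, 11.8 with DMBA and 9.76 with both, a ratio of 2.78 (2.35 to 3.40), and rose (adjusted p = 0.0425). Pecam1 (CD31) had 6.18 CPM in control and 8.09 in BPA, against 20.2 in DMBA and 20.7 in BPA+DMBA, and Cdh5 (VE-cadherin) 11.4 CPM in control, 15.8 with BPA, 23.1 with DMBA and 25.3 with both, and both rose (adjusted p = 0.0260 and 0.0468). Emcn, an endothelial sialomucin, and Rgs5, a pericyte marker, had ratios of 2.21 and 1.94 (adjusted p = 0.0586 and 0.172). Flt1 and Cspg4 had ratios of -0.02 and 0.10, so the markers differed among themselves. The summed level of the 16 was 501 CPM in control and 499 in BPA, against 546 in DMBA and 619 in BPA+DMBA, of which Cspg4 alone made 268 CPM in control and 245 in BPA, against 189.5 in DMBA and 287 in BPA+DMBA. Among adipocyte markers Fabp4, a fatty acid carrier also found in endothelium, had 5.68 CPM in control, 6.36 with BPA, 17.8 with DMBA and 15.2 with both, and rose (adjusted p = 0.0468), while Adipoq had 1 count in control and 5 in BPA+DMBA. Lyz2, lysozyme of macrophages and neutrophils, had 8 counts in control and 7 in BPA, against 31 in DMBA and 44 in BPA+DMBA (0.269 and 2.77 CPM in control and BPA+DMBA), and rose (adjusted p = 0.0432), whereas Cd68 had a ratio of 0.15 and Csf1r -0.00. The part of vessel or other non-epithelial cells in the higher genes was not tested. In such bulk libraries, more cells of a type and more RNA per cell cannot be told apart.

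**Figure D3:**
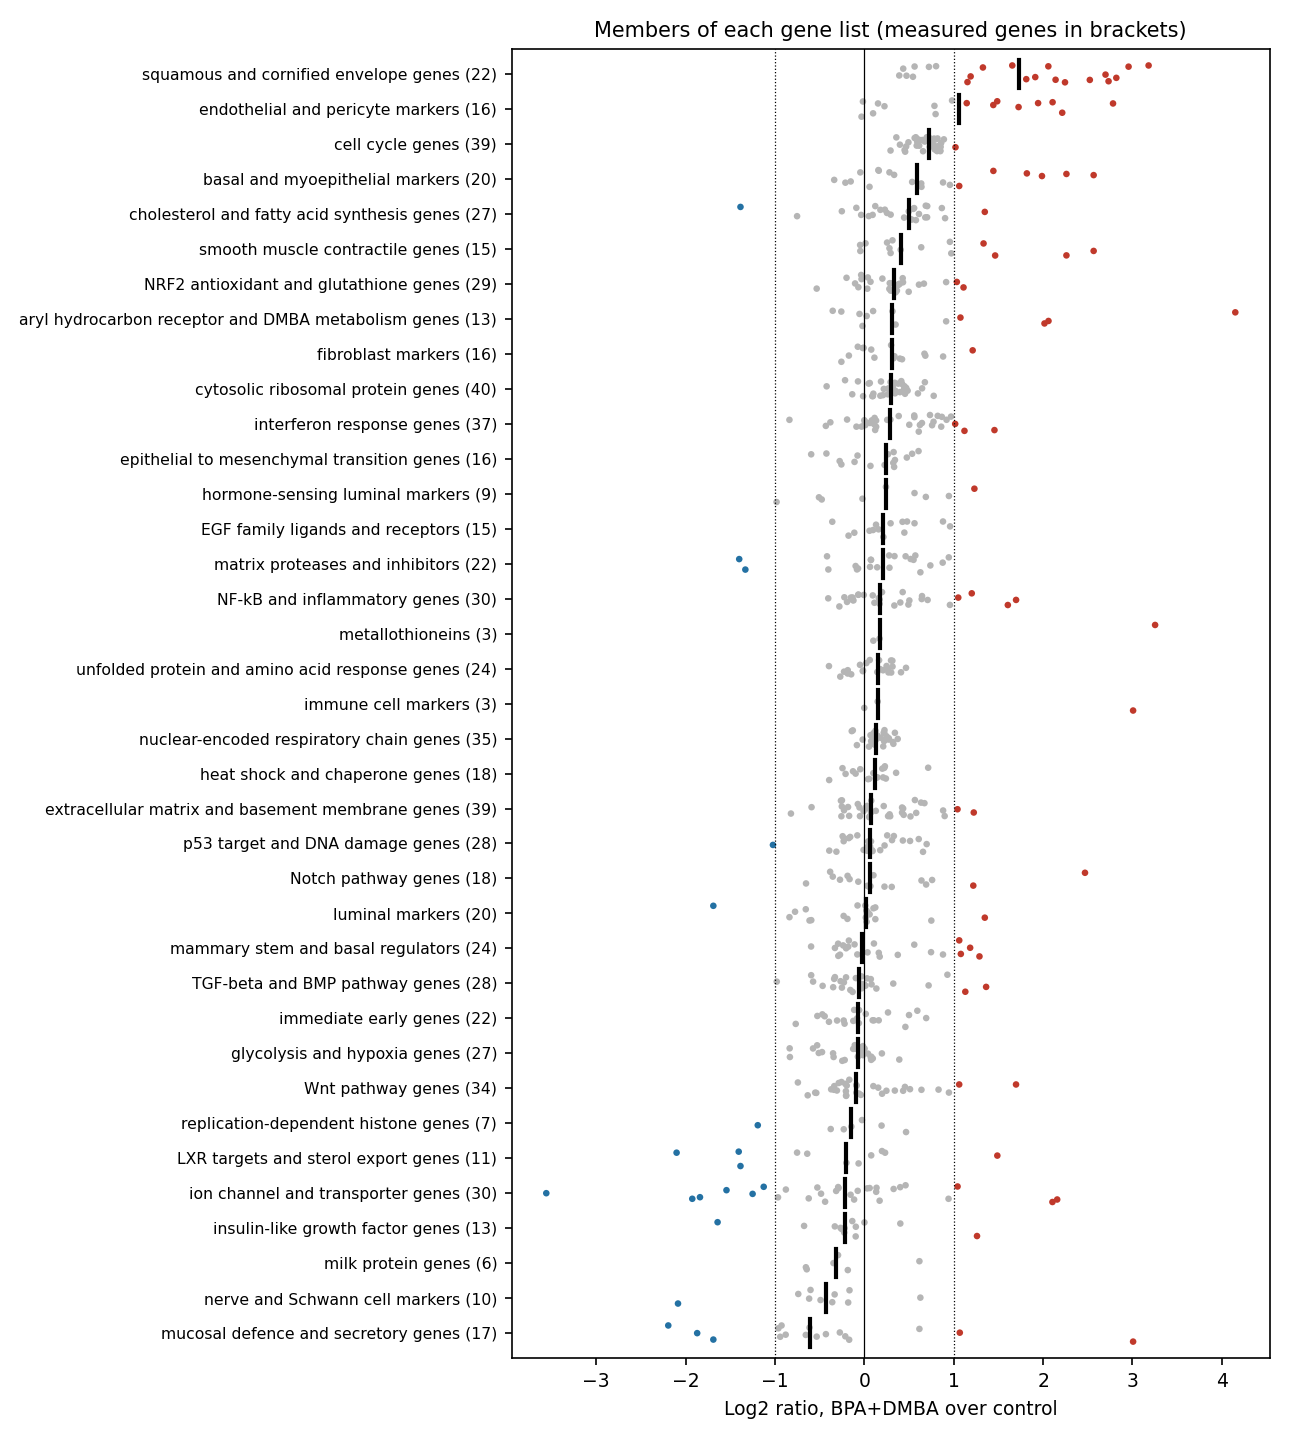
Log2 ratio of BPA+DMBA over control (x axis) for the measured members of each gene list (rows, members in brackets), 1 point per gene. Red and blue points are genes called higher and lower, black bars are list medians and dotted lines mark 2-fold; squamous genes (median 1.73) stand at the top and mucosal defence genes (median -0.61) at the bottom.

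Sterol and lipid genes moved in both directions. Liver X receptors (LXR) are sterol sensors that switch on sterol export and, through Srebf1 and Scd1, fatty acid synthesis and desaturation. Of 14 listed LXR targets and sterol export genes 11 were measured, with 3 called lower, 1 higher and a median ratio of -0.20. Abca1, the exporter that loads cholesterol onto apolipoproteins, stood at 632 CPM in control, 362 with BPA, 150.1 with DMBA and 147 with both, 4.29-fold lower in BPA+DMBA than in control (ratio -2.10, -2.16 to -2.04), and fell (adjusted p = 0.0212). Abcg1, a second sterol exporter, stood at 91.8 CPM in control and 59.8 in BPA, against 34.0 in DMBA and 34.6 in BPA+DMBA, and fell too (ratio -1.41, -1.54 to -1.28, adjusted p = 0.0315). In both genes the BPA library lay between control and the DMBA libraries. Scd1, the stearoyl-CoA desaturase, made the largest loss in CPM of all called genes, from 3464 to 1325 (ratio -1.39, adjusted p = 0.0586), with 2287 in BPA and 1165 in DMBA. Mylip, a ubiquitin ligase and LXR target, had a ratio of -0.64 and fell (adjusted p = 0.0432). Apoe, an apolipoprotein that LXR also induces, was higher: 12.1 CPM in control, 10.7 with BPA, 55.2 with DMBA and 34.2 with both, ratio 1.49 (1.30 to 1.69), and it rose (adjusted p = 0.0303). The receptors themselves, Nr1h2 and Nr1h3, had ratios of 0.08 and 0.20.

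LXR binds direct repeats spaced by 4 bases. The Abca1 window, from RefSeq on GRCm38.p6 at chr4:53159846-53160145 on the minus strand, is shown because it holds 1 pair of copies of NGGTNA 4 letters apart, here on the reverse strand and in capitals.
Abca1: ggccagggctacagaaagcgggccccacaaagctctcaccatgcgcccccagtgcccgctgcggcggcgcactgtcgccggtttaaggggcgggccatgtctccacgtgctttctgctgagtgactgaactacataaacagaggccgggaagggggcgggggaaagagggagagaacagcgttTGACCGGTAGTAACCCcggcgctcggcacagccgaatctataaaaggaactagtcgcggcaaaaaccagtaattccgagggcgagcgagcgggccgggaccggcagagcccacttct
Such a pair, searched on both strands, was present in 2 of 13 windows (15.4%) that belong to 8 of the 11 measured list genes, against 0.718% of all RefSeq windows.

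Genes of cholesterol synthesis leaned higher. Of 27 measured genes of cholesterol and fatty acid synthesis 22 had ratios above 0, with a median of 0.50, and Scd1 was called lower. Fdps (farnesyl diphosphate synthase) and Lss (lanosterol synthase) had ratios of 0.87 and 0.70 and rose (adjusted p = 0.0468 and 0.0402). Fdps stood at 21.8 CPM in control and 27.0 in BPA, against 36.8 in DMBA and 39.9 in BPA+DMBA, and Lss at 54.5 CPM in control, 62.4 with BPA, 82.2 with DMBA and 88.8 with both. Neither reached 2-fold. Idi1, an isomerase earlier in the pathway, had a ratio of 0.90 (0.55 to 1.28, adjusted p = 0.121). Fasn (fatty acid synthase) stood near level at 0.09, and Srebf1, its activator and an LXR target, at -0.75 (adjusted p = 0.0708).

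**Figure D4:**
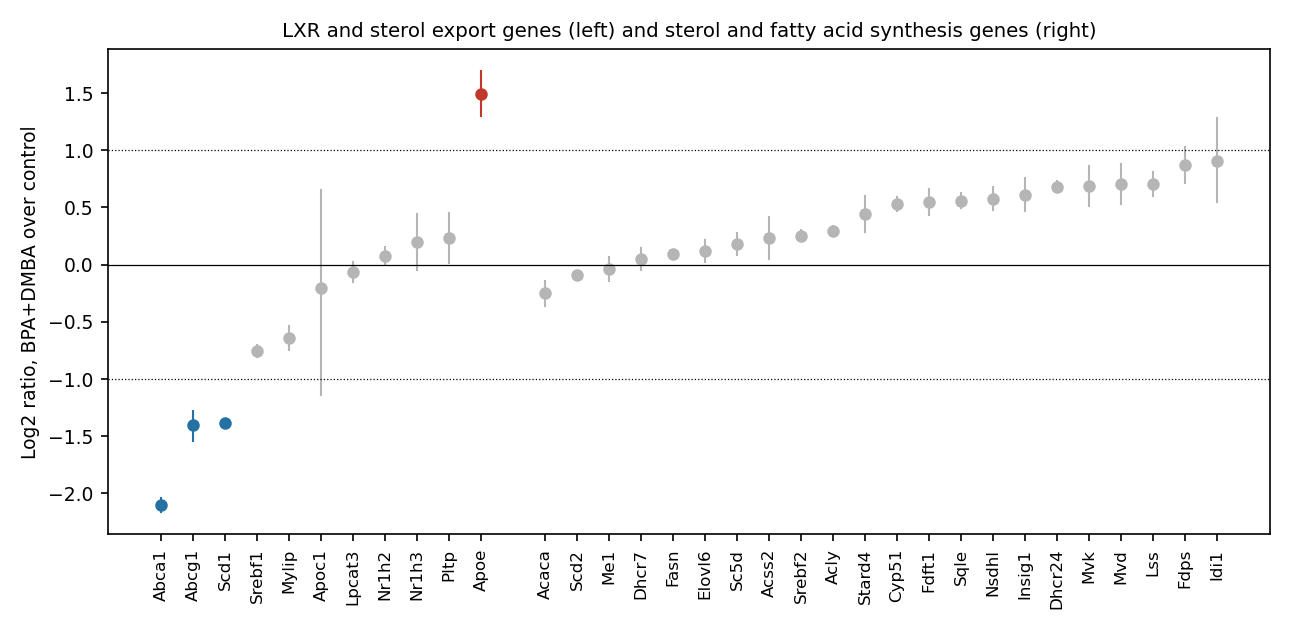
Log2 ratio of BPA+DMBA over control (y axis) for the 11 measured genes of the LXR list (left) and for 22 further genes of cholesterol and fatty acid synthesis (right), with 95% counting intervals as bars. Abca1 at -2.10, Abcg1 at -1.41 and Scd1 at -1.39 lie below the lower 2-fold line, and Apoe at 1.49 above the upper one.

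Secreted and membrane proteins of luminal defence were lower. Of 17 measured mucosal defence and secretory genes 14 had ratios below 0, 3 were called lower and 2 higher, with a median of -0.61, and their summed level was 28706 CPM in control and 26640 in BPA, against 17675 in DMBA and 17759 in BPA+DMBA. Fcgbp, a mucus protein that binds immunoglobulin G, stood at 1759 CPM in control and 1205 in BPA, against 290.5 in DMBA and 384 in BPA+DMBA, 4.58-fold lower in BPA+DMBA (ratio -2.19, -2.23 to -2.16), and fell (adjusted p = 0.0281). Pigr, the receptor that carries immunoglobulin A into milk, stood at 79.7 CPM in control, 62.6 with BPA, 24.0 with DMBA and 21.7 with both, and fell (ratio -1.87, adjusted p = 0.0176). Muc1, a mucin of the luminal surface, stood at 325.7 CPM in control and 246 in BPA, against 76.6 in DMBA and 101 in BPA+DMBA, and fell (ratio -1.69, adjusted p = 0.0298). In all 3 genes control was highest and BPA next. Ltf (lactoferrin), Lcn2 (lipocalin 2), Trf (transferrin) and Cp (ceruloplasmin, a copper-carrying ferroxidase) stood within 2-fold, with ratios of -0.61, -0.66, -0.94 and -0.96. Slpi, a protease inhibitor of secretions and of keratinocytes, was higher at 205 CPM in control, 257 with BPA, 607 with DMBA and 429.9 with both (ratio 1.07, adjusted p = 0.102).

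Of 20 luminal markers 1 was called higher and 1, Muc1, lower, and the median ratio was 0.01. Krt8 and Krt18 had ratios of 0.12 (0.09 to 0.16) and -0.19 (-0.22 to -0.16). The progenitor markers split: Aldh1a3, an aldehyde dehydrogenase, stood at 40.1 CPM in control and 46.2 in BPA, against 96.5 in DMBA and 102 in BPA+DMBA, and rose (ratio 1.35, adjusted p = 0.0176), while Kit, a receptor kinase, and Elf5, the transcription factor of alveolar cells, had ratios of -0.78 and -0.59 and fell (adjusted p = 0.0315 and 0.0481). Among hormone receptors Pgr, the progesterone receptor and an estrogen receptor target, stood at 14.2 CPM in control, 21.9 with BPA, 45.1 with DMBA and 33.5 with both, a ratio of 1.23 (1.05 to 1.42, adjusted p = 0.123). Esr1, estrogen receptor alpha, had 3.26 CPM in control and 2.71 in BPA, against 2.19 in DMBA and 2.27 in BPA+DMBA, and an interval that included equality (-1.12 to 0.04). Prlr, the prolactin receptor, had a ratio of -0.98 and fell (adjusted p = 0.0186). Of 6 measured milk protein genes 0 were called, and Csn3 (kappa-casein) had a ratio of -0.64.

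Ion channels and transporters held the lowest ratio shown by any named gene. Of 30 measured, 6 were called lower and 3 higher, with a median of -0.22, and 7 fell and 1 rose in the additive test. Over all genes 1.41% were called lower and 2.47% higher. Kcnma1, the large-conductance calcium-activated potassium channel, had 94 counts in control, 41 with BPA, 6 with DMBA and 3 with both (3.16 and 0.189 CPM in control and BPA+DMBA); the raw count ratio was 16.7-fold lower with an interval of 5.55 to 82.6, and the gene fell (adjusted p = 0.0279). With 3 counts in BPA+DMBA the size of that difference is poorly fixed. Clic6, a chloride intracellular channel protein, stood at 388 CPM in control and 307 in BPA, against 60.2 in DMBA and 102 in BPA+DMBA, 3.80-fold lower, and fell (adjusted p = 0.0424). Scnn1a and Scnn1b, subunits of the epithelial sodium channel, had ratios of -1.13 (-1.22 to -1.03) and -1.25 (-1.58 to -0.96) and fell (adjusted p = 0.0182 and 0.0467), and the gamma subunit Scnn1g had -0.97 (adjusted p = 0.226). Kcnj15, an inward rectifier potassium channel, and Slc1a2, a glutamate transporter, had ratios of -1.54 and -1.84 and fell as well (adjusted p = 0.0279 and 0.0209). On the higher side Aqp3, the water and glycerol channel of basal keratinocytes, had 2.92 CPM in control, 3.39 with BPA, 16.1 with DMBA and 13.3 with both, and rose (ratio 2.16, adjusted p = 0.0269). Atp12a, a proton-potassium pump, had 1.08 CPM in control and 1.30 in BPA, against 18.6 in DMBA and 4.91 in BPA+DMBA, with DMBA far above the rest, and did not pass (adjusted p = 0.166).

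**Figure D5:**
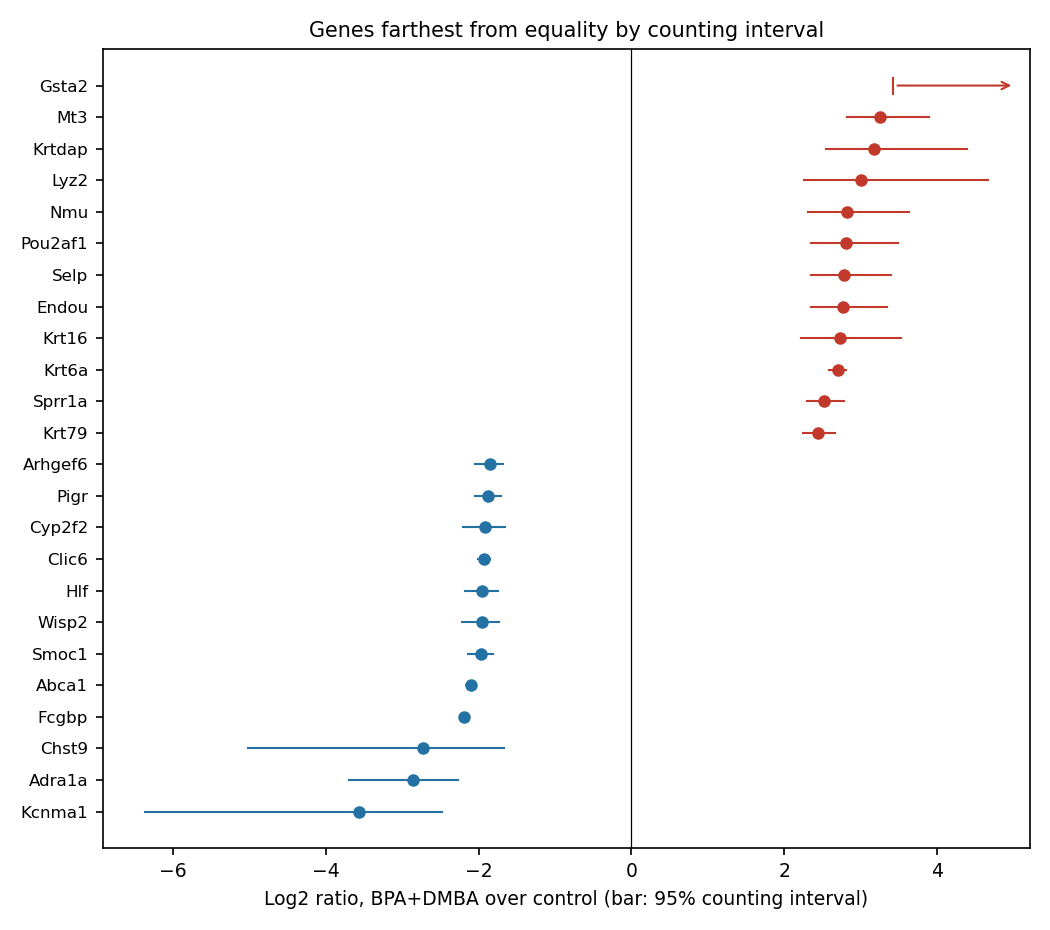
Log2 ratio of BPA+DMBA over control for the 12 higher and 12 lower genes whose counting interval ends farthest from equality (points, with 95% intervals as bars). Gsta2, with 0 counts in control, is drawn as an arrow from the lower bound of its interval; Krt6a (2.70), Fcgbp (-2.19) and Abca1 (-2.10) have the narrow intervals of abundant genes.

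Igfbp5, a binding protein for insulin-like growth factors, stood at 1876 CPM in control, 1435 with BPA, 286 with DMBA and 601 with both, 3.12-fold lower in BPA+DMBA, while Igfbp3, another such protein, stood at 129 CPM in control and 136 in BPA, against 351 in DMBA and 309 in BPA+DMBA, and rose (ratio 1.26, adjusted p = 0.0198). Igfbp5 was lowest in DMBA and did not pass the additive test (adjusted p = 0.0838). Smoc1, a matricellular protein, had 84.6 CPM in control, 51.3 with BPA, 11.6 with DMBA and 21.5 with both (adjusted p = 0.0673), and Wisp2, a member of the CCN family, 40.4 CPM in control and 25.4 in BPA, against 4.82 in DMBA and 10.3 in BPA+DMBA (adjusted p = 0.0721). Both were lowest in DMBA. Hlf, a transcription factor of the clock-regulated PAR family, stood at 50.8 CPM in control, 31.5 with BPA, 8.70 with DMBA and 13.1 with both, and fell (ratio -1.95, adjusted p = 0.0489). Cyp2f2, a cytochrome P450, stood at 29.7 CPM in control and 22.7 in BPA, against 6.36 in DMBA and 7.81 in BPA+DMBA, and fell (ratio -1.91, adjusted p = 0.0260). Arhgef6, an exchange factor for small GTPases, had a ratio of -1.85 (adjusted p = 0.0691), Chst9, a sulfotransferase, -2.73 (adjusted p = 0.0503), and C1qtnf1, a secreted C1q-like protein, -1.34 (adjusted p = 0.0602). Spata3 had 22 counts in control and 0 in each of the other 3 libraries.

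Genes of the aryl hydrocarbon receptor were higher in part, 2 months after the DMBA dose and after the 7 days in culture. Of 13 measured genes of the receptor and of DMBA metabolism 4 were called higher and 0 lower, with a median of 0.31. Over all genes 2.47% were called higher, but 8.37% below 3 CPM and 5% from 3 to 10 CPM. The called genes Gsta2, Cyp1a1 and Ugt1a6a stood below 3 CPM in control, and Gsta2 passed the count filter only through BPA+DMBA. Cyp1a1, the oxidase most closely tied to the receptor, had 1.45 CPM in control, 2.87 with BPA, 4.74 with DMBA and 6.11 with both, and a ratio of 2.02 (1.55 to 2.63, adjusted p = 0.0578), and the BPA library alone stood at 0.95 over control. Cyp1b1, which oxidises DMBA in many tissues, was abundant but near level at 409.6 CPM in control and 399 in BPA, against 478 in DMBA and 522 in BPA+DMBA (ratio 0.35, adjusted p = 0.191). Ahr itself had a ratio of -0.05 (-0.17 to 0.06). Aldh3a1, an aldehyde dehydrogenase of the same gene battery, stood at 5.14 CPM in control, 6.21 with BPA, 20.2 with DMBA and 21.7 with both, and rose (ratio 2.06, adjusted p = 0.0176). Gsta2, a glutathione transferase, had 0 counts in control and 3 in BPA, against 16 in DMBA and 23 in BPA+DMBA, so its BPA+DMBA level was 14.4-fold that of 3 counts in control, the most that a count of 0 allows, and the 95% interval of the count ratio started at 10.8-fold (adjusted p = 0.0561). Its close paralog Gsta1, below the count filter, had 2 counts in control and 10 in BPA+DMBA, and reads of the 2 genes can be exchanged. Ugt1a6a, a glucuronosyltransferase that shares exons with its neighbours, had a ratio of 1.08 (adjusted p = 0.126).

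The receptor binds the core motif GCGTG. The windows of Cyp1a1 (chr9:57697363-57697662, plus strand) and Gsta2 (chr9:78347096-78347395, minus strand), from RefSeq on GRCm38.p6, are shown because each holds 1 such core, in capitals.
Cyp1a1: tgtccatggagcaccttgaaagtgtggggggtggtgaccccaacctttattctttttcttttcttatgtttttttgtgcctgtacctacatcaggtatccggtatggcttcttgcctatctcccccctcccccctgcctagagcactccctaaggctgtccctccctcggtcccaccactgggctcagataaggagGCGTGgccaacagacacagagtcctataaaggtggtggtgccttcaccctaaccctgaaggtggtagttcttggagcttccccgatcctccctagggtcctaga
Gsta2: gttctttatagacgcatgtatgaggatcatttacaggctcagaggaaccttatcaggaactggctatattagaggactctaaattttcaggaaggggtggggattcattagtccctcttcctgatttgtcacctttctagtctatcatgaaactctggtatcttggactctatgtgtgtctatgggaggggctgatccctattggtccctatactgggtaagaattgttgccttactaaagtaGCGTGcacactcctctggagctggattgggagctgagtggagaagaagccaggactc
The core was present on either strand in 6 of 11 windows (54.5%) of 11 measured list genes, against 32.4% of all RefSeq windows, so it is a frequent match.

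Antioxidant genes leaned slightly higher. Of 29 measured genes of the NRF2 antioxidant and glutathione list 23 had ratios above 0, with a median of 0.34, and 2 were called higher. Gpx2, a glutathione peroxidase of epithelia, stood at 107 CPM in control, 117 with BPA, 264 with DMBA and 229.9 with both, and Gsta4, a transferase for lipid aldehydes, at 113 CPM in control and 121 in BPA, against 258 in DMBA and 232 in BPA+DMBA, and both rose (adjusted p = 0.0279 and 0.0252). Nqo1 and Hmox1, the classical NRF2 targets, had ratios of 0.92 and 0.67 and rose (adjusted p = 0.0470 and 0.0382). Mt3, a metal-binding metallothionein best known from brain, had 1.21 CPM in control, 2.61 with BPA, 10.9 with DMBA and 12.3 with both, a ratio of 3.25 (2.82 to 3.90), and rose (adjusted p = 0.0249). The widely expressed Mt1 and Mt2 were near level at 0.10 and 0.17.

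Cell cycle genes were higher by small and even amounts. All 39 measured genes had ratios above 0, from 0.29 for Pcna to 1.02 for Plk1, with a median of 0.72, but 1 of the 39 reached 2-fold. Their summed level was 1163 CPM in control, 1285 with BPA, 1890 with DMBA and 1805 with both. In the additive test 6 rose and 0 fell. Plk1, a mitotic kinase, stood at 15.3 CPM in control and 19.3 in BPA, against 31.4 in DMBA and 31.2 in BPA+DMBA, and rose (ratio 1.02, 0.84 to 1.21, adjusted p = 0.0499). Rrm2, a ribonucleotide reductase subunit, stood at 26.4 CPM in control, 27.6 with BPA, 52.8 with DMBA and 47.5 with both, and Mcm5, part of the replicative helicase, at 38.0 CPM in control and 46.2 in BPA, against 67.4 in DMBA and 67.2 in BPA+DMBA, and both rose (adjusted p = 0.0465 and 0.0481). Mki67, the proliferation antigen Ki-67, had a ratio of 0.46 (adjusted p = 0.122). In 38 of the 39 genes the DMBA and BPA+DMBA libraries both lay above the control and BPA libraries.

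Plk1 is a textbook gene of the cell cycle homology region, a promoter element with the letters TTTGAA. Its window, from RefSeq on GRCm38.p6 at chr7:122159185-122159484 on the plus strand, holds 1 copy, in capitals.
Plk1: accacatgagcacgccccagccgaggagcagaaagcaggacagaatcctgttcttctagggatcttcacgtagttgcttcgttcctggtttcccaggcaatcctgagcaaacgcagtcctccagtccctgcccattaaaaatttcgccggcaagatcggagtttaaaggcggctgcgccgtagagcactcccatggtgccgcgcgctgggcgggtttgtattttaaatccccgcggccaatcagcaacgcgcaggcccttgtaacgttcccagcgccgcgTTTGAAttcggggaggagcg
The element was present on either strand in 14 of 33 windows (42.4%) of 32 cell cycle genes, against 17.9% of all RefSeq windows.

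The p53 targets, which respond to DNA damage, stood near level. Of 28 measured 0 were called higher and 1 lower, with a median of 0.06. Cdkn1a, the cell cycle inhibitor p21, stood at 185 CPM in control, 206 with BPA, 316 with DMBA and 282 with both (ratio 0.61, adjusted p = 0.0836), and Mdm2, the ubiquitin ligase of p53, at 173 CPM in control and 189.8 in BPA, against 189 in DMBA and 181 in BPA+DMBA (ratio 0.06). Phlda3, an AKT inhibitor induced by p53, had a ratio of 0.70 and rose (adjusted p = 0.0402). Fas, the death receptor, had 6.49 CPM in control, 4.64 with BPA, 3.16 with DMBA and 3.15 with both, and a ratio of -1.02 (-1.52 to -0.59, adjusted p = 0.126).

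The interferon and inflammatory genes that were called were all higher. Of 37 measured interferon response genes 3 were called higher and 0 lower, with a median ratio of 0.29, beside medians of 0.17 in BPA over control and -0.07 in DMBA over control. These 3 ratios share the control library. Cxcl10, a chemokine, had 0.840 CPM in control and 1.20 in BPA, against 0.899 in DMBA and 2.46 in BPA+DMBA, Ifit1, an antiviral protein, 2.39 CPM in control, 3.39 with BPA, 2.48 with DMBA and 5.29 with both, and Mx2, an antiviral GTPase, 20 counts in control and 18 in BPA, against 15 in DMBA and 23 in BPA+DMBA (0.672 and 1.45 CPM in control and BPA+DMBA). For these 3 genes BPA+DMBA had the highest level of the 4 libraries, and none passed the additive test (adjusted p = 0.152, 0.142 and 0.333). All 3 are low genes, which were called more often. Over all genes 2.47% were called higher, but 8.37% below 3 CPM and 5% from 3 to 10 CPM. The number of calls in the list is therefore not read as a result. Of 30 measured NF-kB and inflammatory genes 4 were called higher and 0 lower, with a median of 0.17. All of these but Ccl2 stood below 10 CPM in both libraries of the pair, so this number of calls is not read as a result either. Ccl2, a monocyte chemokine, stood at 22.9 CPM in control, 32.4 with BPA, 51.5 with DMBA and 52.8 with both, and rose (ratio 1.20, adjusted p = 0.0420). Tslp, an epithelial cytokine, had 1.51 CPM in control and 1.10 in BPA, against 2.80 in DMBA and 5.10 in BPA+DMBA (ratio 1.70, adjusted p = 0.106), Saa3, an acute phase protein, 3.02 CPM in control, 3.44 with BPA, 6.04 with DMBA and 9.38 with both (ratio 1.61, adjusted p = 0.0527), and Vcam1, an adhesion molecule, 3.02 CPM in control and 4.23 in BPA, against 7.94 in DMBA and 6.36 in BPA+DMBA (ratio 1.05, adjusted p = 0.178).

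Matrix genes were near level between the pair, although their sum was lower in the libraries with 1 treatment. The 39 measured extracellular matrix and basement membrane genes summed to 41162 CPM in control, 35054 with BPA, 30934 with DMBA and 44494 with both, with a median ratio of 0.07. Col1a1, a chain of type I collagen, stood at 3304 CPM in control, 2615 with BPA, 1923 with DMBA and 3484 with both. The 2 called genes, both higher, were Cilp, a cartilage intermediate layer protein, at 36.9 CPM in control and 53.9 in BPA, against 28.6 in DMBA and 86.3 in BPA+DMBA (ratio 1.22, adjusted p = 0.0838), and Col17a1, the hemidesmosome collagen of basal epithelium, at 120.4 CPM in control, 133 with BPA, 264 with DMBA and 248 with both, which rose (ratio 1.04, adjusted p = 0.0249). The 16 fibroblast markers summed to 13796 CPM in control, 10744 with BPA, 8292 with DMBA and 13323 with both, with a median ratio of 0.31. In both lists the libraries with 1 treatment lay below control and BPA+DMBA. The lists share abundant genes, among them Col1a1, Col1a2, Col3a1 and Fn1, so the fibroblast sum is no separate observation. Fn1 (fibronectin) alone stood at 4934 CPM in control, 4120 with BPA, 2714 with DMBA and 4128 with both. Dpt, a dermatopontin of fibroblasts, had 14.5 CPM in control and 14.0 in BPA, against 29.2 in DMBA and 33.7 in BPA+DMBA, and rose (adjusted p = 0.0286). The part of fibroblast transcripts in the matrix values was not tested. Mmp13 and Mmp12, a collagenase and a macrophage-type elastase, were the 2 called matrix proteases of 22, both lower: Mmp13 stood at 74.4 CPM in control, 26.2 with BPA, 16.6 with DMBA and 28.1 with both, and Mmp12 at 12.3 CPM in control and 24.4 in BPA, against 3.59 in DMBA and 4.85 in BPA+DMBA, with adjusted p = 0.198 and 0.0691.

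Of 24 measured mammary stem and basal regulators 4 were called higher and 0 lower, with a median of -0.02. This count, and those of the Wnt, Notch and TGF-beta lists below, stand beside 2.47% called higher over all genes. That share was 8.37% below 3 CPM and 5% from 3 to 10 CPM. The Wnt, Notch and TGF-beta counts are therefore not read as results. Bcl11b and Id4, transcription regulators of basal cells, had ratios of 1.18 and 1.08 and rose (adjusted p = 0.0402 and 0.0424). Procr, a receptor that marks a basal stem cell population, and Myb, a transcription factor, had ratios of 1.06 and 1.29 (adjusted p = 0.0687 and 0.0873). The stem cell marker Lgr5 had a ratio of 0.16. Of 34 Wnt pathway genes 2 were called higher, the ligand Wnt10a (ratio 1.70, adjusted p = 0.0696) and the secreted inhibitor Wif1 (1.06, adjusted p = 0.162), and the list median was -0.09. Of 18 Notch genes 2 were called higher, Mfng, a glycosyltransferase of Notch receptors with 5 counts in control, 5 with BPA, 24 with DMBA and 21 with both (0.168 and 1.32 CPM in control and BPA+DMBA), and Nrarp, a Notch target (ratio 1.22, adjusted p = 0.0707). Of 28 TGF-beta and BMP genes the ligand Bmp4, with 13 counts in control and 15 in BPA, against 28 in DMBA and 20 in BPA+DMBA (0.437 and 1.26 CPM in control and BPA+DMBA), and the activin antagonist Fst were called higher, and Fst rose (ratio 1.13, adjusted p = 0.0211).

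Several programmes showed no called gene in either direction: 22 immediate early genes (median ratio -0.07), 16 genes of epithelial to mesenchymal transition (0.25), 15 EGF family genes (0.21), 24 unfolded protein and amino acid stress genes (0.15), 27 glycolysis and hypoxia genes (-0.07), 18 heat shock genes (0.12), 40 cytosolic ribosomal protein genes (0.30) and 35 nuclear-encoded respiratory chain genes (0.13). Over all genes 2.47% were called higher and 1.41% lower, so 0 calls in lists of this size do not set them apart. Ratios lay above 0 in 35 of the 40 ribosomal protein genes and 31 of the 35 respiratory chain genes. Among the 27 glycolysis and hypoxia genes 8 did so. Of 7 measured replication-dependent histone genes Hist2h2bb was lower, with 29 counts in control, 8 with BPA, 31 with DMBA and 6 with both (0.975 and 0.378 CPM in control and BPA+DMBA). The 10 nerve and Schwann cell markers had a median of -0.42, and Sox10, which mammary basal cells also express, had a ratio of -0.18.

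Further genes at the top of the higher side have no list in common. Nmu, the neuropeptide neuromedin U, had 0.840 CPM in control and 1.04 in BPA, against 5.72 in DMBA and 6.49 in BPA+DMBA, a ratio of 2.83 (2.31 to 3.64), and rose (adjusted p = 0.0252). Pou2af1, a transcription coactivator best known from B cells, had 1.14 CPM in control, 1.93 with BPA, 13.6 with DMBA and 8.56 with both (ratio 2.81, adjusted p = 0.0543), while the B cell marker Ms4a1 had 1 count in control and 1 in BPA+DMBA. Endou, a poly(U)-specific endoribonuclease, had 1.48 CPM in control and 2.19 in BPA, against 15.1 in DMBA and 10.6 in BPA+DMBA, and rose (ratio 2.77, adjusted p = 0.0382). Klk6, a kallikrein serine protease, stood at 197 CPM in control, 260.1 with BPA, 735 with DMBA and 423 with both, highest in DMBA (ratio 1.10, adjusted p = 0.189).

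The called genes were then set beside the libraries with a single treatment, which share the control library with the pair. Genes called higher had a median log2 ratio of 1.34 in BPA+DMBA, 1.53 in DMBA and 0.30 in BPA, each over control. Genes called lower had medians of -1.30, -1.23 and -0.32 in the same order. The genes were chosen on the BPA+DMBA library, so these medians describe them and test nothing. Of the 330 higher genes 213 had their highest level in DMBA, 117 in BPA+DMBA and 0 in BPA. Of the 189 lower genes 97 had their lowest level in BPA+DMBA, 90 in DMBA and 2 in BPA. These 2 include Spata3, with 0 counts in each of BPA, DMBA and BPA+DMBA, a tie that was counted under BPA.

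The ratio had a weak relation to gene length. Across the 13273 genes with a known length (99.2%), the Spearman rank correlation between log2 ratio and length was -0.139, a description across genes, which are not independent. The median length was 1724 bases in genes called higher, 1877 in genes called lower and 1479 in all genes compared. Removing the length trend from the ratios left 344 genes called higher and 182 lower.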

How the data were processed

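The 4 libraries were made from total RNA (miRNeasy kit) with Illumina TruSeq reagents, as the labels' protocols state. Each holds spheres pooled from 5 animals, per the series' design text, so no group has replicates. The values the authors deposited are unnormalized read counts for each gene symbol, in 1 table per library, as their whole numbers and differing totals show. CASAVA 1.8.2, HTSeq, DESeq and the build mm9 are named in the submitters' processing notes. No source used here gives the role of each tool, an aligner or how strand was treated, so reads of overlapping or antisense genes cannot be told apart.

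The deposited counts were used without change, and the summary entries for reads outside genes (13.5% of control and 11.3% of BPA+DMBA reads), on several places (22.9% and 25.3%) or on overlapping genes (0.435% and 0.449%) were left out. Counts on genes came to between 15672532 and 30627055 per library. Libraries were scaled by TMM over all 4 (factors 0.971 to 1.04) in edgeR 4.0.16 under R 4.3.3. The control and BPA+DMBA counts differed beyond sampling noise (chi-square per degree of freedom of 41.8). Log2 ratios used a prior count of 2, and intervals were 95% Clopper-Pearson intervals of the count ratio. The additive test was edgeR's quasi-likelihood test with Benjamini-Hochberg adjustment over all 13380 genes, and every adjusted p in the text is from it. Both steps were tested on simulated data. DESeq2 1.42.0 served for alternatives. Other scalings, filters, prior counts, thresholds, a thinned control library and removal of a length trend were tried.

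Named genes were the 12 higher and 12 lower called genes with intervals farthest from equality, the 6 with the largest gain and the 6 with the largest loss of CPM, up to 4 called members per list, the most abundant marker of each cell type and 10 fixed genes, leaving out predicted, clone-named and small RNA genes. Other genes in the text were added after their values were seen. Members, rules and the 40 gene lists were chosen with earlier results of these data known. Of the lists, 38 held a measured gene; red blood cell and mitochondrially encoded genes held 0. Promoter windows are RefSeq's (GRCm38.p6), matched by symbol. The share of windows with a motif among the genes compared was computed for AP-1 alone. The other motifs are set beside all RefSeq windows, which include genes that were not compared. Some genes of the lists are counted but not reported here by name.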

Additional observations from a re-analysis of the deposited data

How the results depend on the processing

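In the pair of libraries the counts of called genes stayed within 1.5 times of 330 higher and 189 lower under total counts alone (385 and 161), DESeq2 size factors (327 and 191), TMM over the pair alone (330 and 189), a filter of 50 counts (228 and 138), prior counts of 0.5 (354 and 195) and 5 (301 and 167), a control library thinned to the BPA+DMBA total (356 and 163) and removal of the length trend (344 and 182). Without a filter 505 genes were called higher, at a threshold of 1.5-fold 925 higher and 571 lower, and at 3-fold 111 higher and 52 lower. The named genes were recomputed under the 8 settings of the first sentence and without a filter (95 genes, 94 with thinning and 86 with 50 counts), and 0 reversed. The calls of Fas (total counts alone and a prior count of 5), Mx2 (a prior count of 5), Wif1 (thinning), Plk1 and Gsta4 (length trend) ended, each near 2-fold. Of 38 list medians 9 moved and 1 reversed without a filter, when genes with few counts entered, and 7 moved at 50 counts. Without a filter the median of the milk protein genes turned from -0.32 to 0.050. That of the hormone-sensing luminal markers moved from 0.24 to 0.09 and that of the LXR targets from -0.20 to -0.41. The squamous median moved from 1.73 to 1.42, mucosal defence from -0.61 to -0.48 and smooth muscle from 0.41 to 0.30. Vessel markers moved from 1.06 to 1.28, immune cell markers from 0.15 to 0.81, adipocyte markers from 1.10 to 0.78 and metallothioneins from 0.17 to 0.33. At 50 counts the LXR median was -0.35, the interferon median 0.13 (from 0.29) and that of the aryl hydrocarbon receptor genes 0.21 (from 0.31). The squamous median was then 1.49, smooth muscle 0.52, adipocyte markers 1.41 and histone genes -0.02 (from -0.15). With the length trend removed the LXR median was -0.32. With thinning the ion channel median was -0.11 (from -0.22), the fibroblast median 0.20 (from 0.31) and the smooth muscle median 0.54. The additive test was far less stable than the pair. It passed 106 higher and 117 lower genes as stated, 90 and 79 by DESeq2's Wald test, 560 and 478 by edgeR's likelihood ratio test, 55 and 68 with DESeq2 size factors, 398 and 466 without a filter, and 49 and 61 with a filter of 50 counts. With total counts alone it passed 0 and 0, at 2483 genes with an unadjusted p under 0.05. The cause of these differences was not tested, and an adjusted p near 0.05 should be read with them in mind. No paired analysis was possible because each group is 1 library, and for the same reason no library could be left out. Depth limits the low genes: below 20 counts in both libraries 9229 genes were not compared.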
